A study of Mus musculus with 16 samples.

Results

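The coagulation and complement factors were followed as a set of 35 genes, 21 of blood coagulation and fibrinolysis and 14 of complement, chosen by gene symbol with earlier results of these data known. Of these, 32 were measured by a probe set that carried 1 gene symbol, 19 for coagulation and 13 for complement, among 30142 genes tested. Each of the 32 had a single probe set. The complement component C3, the fibrinolysis inhibitor Cpb2 and the plasma kallikrein gene Klkb1, whose probe set carries more than 1 symbol, were not analysed here.

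Total RNA from mouse liver was hybridised to Affymetrix arrays 12 h after partial hepatectomy (PHx), in which part of the liver is cut away, or after a sham operation. The mice carried either a floxed Ppara gene (Ppara fl/fl), used as wild type, or a disruption of Ppara in hepatocytes (Ppara△Hep). There were 16 arrays, 4 in each of the 4 groups: Ppara fl/fl after sham, Ppara fl/fl after PHx, Ppara△Hep after sham and Ppara△Hep after PHx. The labels give the disruption as hepatocyte-specific without naming the Cre line and give no ages, so other liver cells of Ppara△Hep mice keep the gene as far as the labels say. Nor do they state whether the arrays of a group come from separate mice, and the tests rest on the spread among arrays, which may be technical in part.

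Hepatocytes make most of the clotting and complement proteins of the blood. In coagulation, zymogens that need vitamin K (prothrombin and factors VII, IX and X) and the contact factors are cut in turn, thrombin converts fibrinogen to fibrin, factor XIII crosslinks it, serpins and protein C hold the cascade back, and plasmin dissolves the clot. In complement, the lectin pathway recognises sugars through mannose-binding lectins and their proteases, C4 and factor B help to build convertases, and C5 to C9 form the membrane attack complex. Fibrinogen and several complement components are known as acute-phase proteins, which the liver makes more of after injury, and PPARα is a fatty-acid receptor of hepatocytes known to dampen parts of that response.

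Between arrays of the same group, the correlation over all genes lay between 0.986 and 0.997, and between arrays of different operations it lay between 0.955 and 0.977. The probe set for Ppara, the disrupted gene, read 6.45, 7.02, 6.99 and 6.77 in Ppara fl/fl and 6.29, 6.43, 6.43 and 6.05 in Ppara△Hep livers after sham. After PHx it read 6.97, 6.08, 5.68 and 7.24 in Ppara fl/fl and 6.26, 5.02, 5.28 and 4.70 in Ppara△Hep livers (log2 intensity, limma adjusted p 0.681 after sham and 0.326 after PHx for the genotype difference). Ppara△Hep was lower after sham with no overlap, and 1 Ppara△Hep array overlapped the Ppara fl/fl arrays after PHx. Where this probe set lies relative to the deleted part is not given in the sources used here, so it is a weak check of the labels. Albumin, which defines hepatocytes, read between 11.67 and 11.91 on every array. Of the 5 measured cholangiocyte markers, Epcam (1.56 to 1.71) and Cftr (1.03 to 1.21) read below every array's median. Krt19 (2.32 to 2.63), Krt7 (3.14 to 3.40) and Sox9 (3.90 to 6.26) read above every array's median.

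After PHx most of the set fell in both genotypes. Values are log2 intensities, and a change is the difference of group means on that scale. In Ppara fl/fl livers 25 of the 32 measured genes were lower at an adjusted p below 0.05 and 0 were higher, against 20.8% of all genes tested that were lower and 11.9% that were higher (limma, Benjamini-Hochberg over 30142 genes). In Ppara△Hep livers 26 of 32 were lower and 0 were higher, against 17.5% lower and 14.8% higher over all genes. All 32 genes have a mean log2 intensity above 4, and among the 9294 genes above that level 36.1% were lower in Ppara fl/fl and 39.8% in Ppara△Hep. The median change of the 32 genes was -0.52 on the log2 scale in either genotype, which leaves 69.9% of the sham level in Ppara fl/fl and 69.7% in Ppara△Hep. The median over all genes was -0.04 and 0.01, but most of the set lies at intensities from 7 to 10. There the median of all genes, by range of 1 unit, ran from -0.21 to -0.13 in Ppara fl/fl. In Ppara△Hep it ran from -0.22 to -0.12. Called falls ran from -0.29 to -1.44 in Ppara fl/fl and from -0.32 to -1.31 in Ppara△Hep. Bulk liver RNA cannot tell fewer cells of a type from less RNA per cell.

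**Figure D1:**
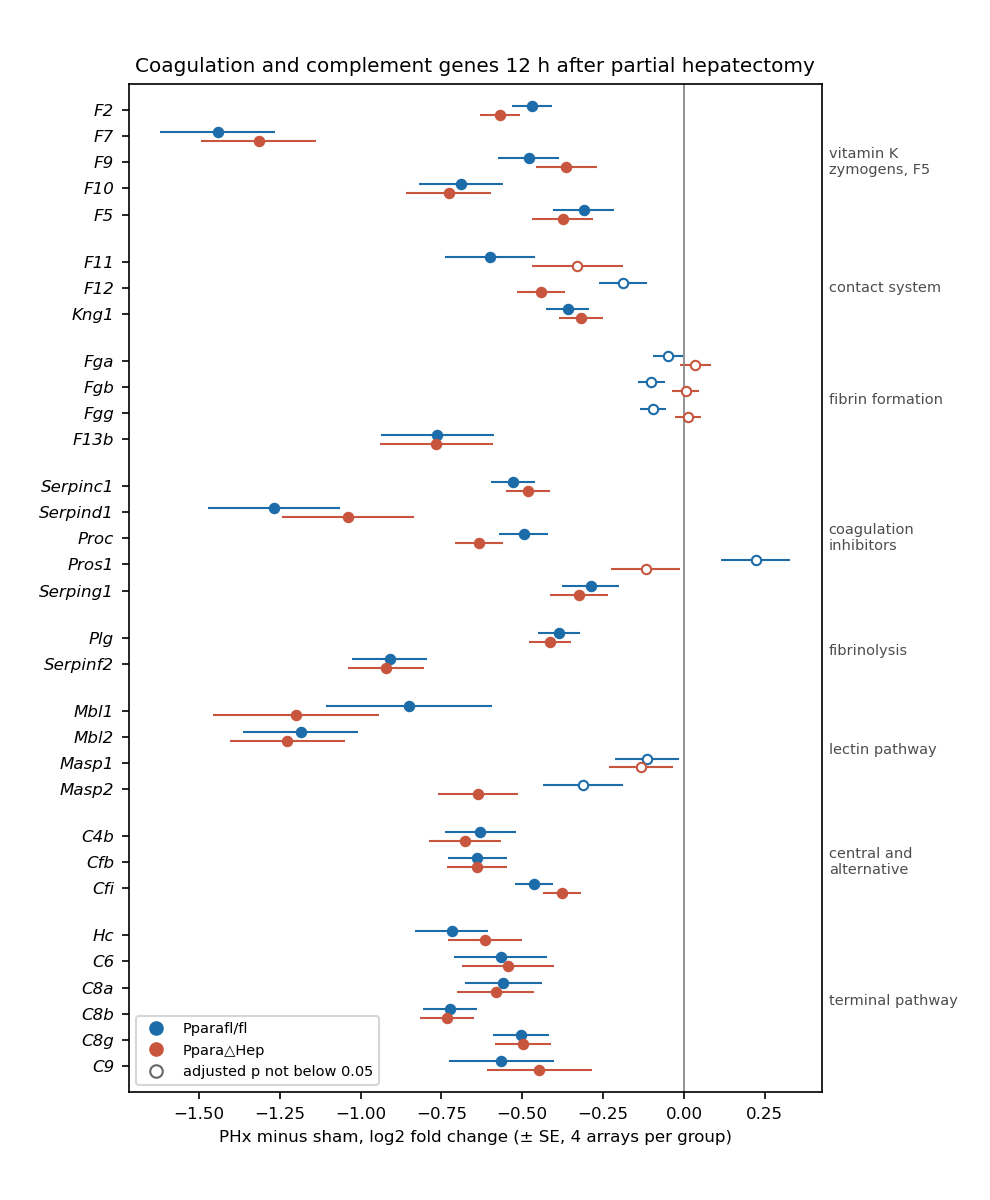
Change from sham to PHx at 12 h for the 32 measured genes, grouped by role (x axis: log2 fold change with its standard error, 4 arrays per group; blue Ppara fl/fl, red Ppara△Hep; open circles have an adjusted p that is not below 0.05). Of the 32 points, 31 in Ppara fl/fl and 29 in Ppara△Hep lie left of 0, with F7 farthest left at -1.44 in Ppara fl/fl, while the fibrinogen chains Fga, Fgb and Fgg sit at 0 or just beside it.

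The arrays separated almost as often as the test called. In 25 genes of either genotype every PHx array lay below every sham array, which over all genes held for 19.9% in Ppara fl/fl and 16.2% in Ppara△Hep. For 11 coagulation and 9 complement genes all 8 PHx arrays lay below all 8 sham arrays, which held for 8.23% of all genes. These shares are over all genes, of which 20848 have a mean under 4, and were not counted for those above 4. Taking each PHx array's deviation from the sham mean of its genotype, the median over the 32 genes lay between -0.60 and -0.40 on the Ppara fl/fl arrays and between -0.64 and -0.39 on the Ppara△Hep arrays, so no single array carried the fall. The arrays of a group also lay farther apart after PHx. The SD was larger than after sham for 26 of 32 genes in Ppara fl/fl and 24 of 32 in Ppara△Hep. The median SD was 0.17 and 0.16 after PHx and 0.08 and 0.11 after sham. How often this held over all genes was not counted, so the wider spread is not shown to be particular to this set.

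The 4 vitamin K-dependent zymogens and the cofactor factor V all fell in both genotypes, 5 of 5. F7 encodes factor VII, which starts clotting together with tissue factor. In Ppara fl/fl livers F7 read 7.55, 7.95, 7.61 and 7.70 after sham and 6.22, 6.06, 6.14 and 6.63 after PHx. In Ppara△Hep livers it read 7.88, 7.53, 7.86 and 7.67 after sham and 6.92, 6.38, 5.89 and 6.5 after PHx. The PHx arrays lay below the sham arrays without overlap in each genotype, a change of -1.44 ± 0.18 (SE) in Ppara fl/fl (adjusted p = 2.76e-05) and -1.31 ± 0.18 in Ppara△Hep (adjusted p = 6.23e-05), or 36.8% and 40.2% of the sham level. F7 thus fell most of the 32 in both genotypes. F10, its neighbour on the chromosome with no protein-coding gene between them in RefSeq, encodes factor X, which forms thrombin from prothrombin, and changed by -0.69 ± 0.13 and -0.73 ± 0.13 (adjusted p = 0.00117 and 7.09e-04). The prothrombin gene F2 changed by -0.47 ± 0.06 and -0.57 ± 0.06 (adjusted p = 4.81e-05 and 5.53e-06). F9, the factor lacking in haemophilia B, changed by -0.48 ± 0.09 and -0.36 ± 0.09 (adjusted p = 0.00154 and 0.00856). F5, factor V, the cofactor of factor X, changed by -0.31 ± 0.09 and -0.38 ± 0.09 (adjusted p = 0.0214 and 0.00745). The F5 call in Ppara fl/fl was lost without sham replicate 4 (adjusted p = 0.05004), without PHx replicate 2 (0.0706) or under cyclic loess (-0.24, adjusted p = 0.0904).

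Of the contact system, which starts clotting on surfaces, 2 of 3 measured genes fell in each genotype: Kng1 in both, F11 in Ppara fl/fl and F12 in Ppara△Hep. Kng1, the kininogen gene that yields bradykinin, fell in both, by 0.36 ± 0.07 in Ppara fl/fl and 0.32 ± 0.07 in Ppara△Hep (adjusted p = 0.00105 and 0.00227). Mice have a second, very similar kininogen gene, Kng2, that the probes may also read. F11, factor XI, changed by -0.60 ± 0.14 in Ppara fl/fl (adjusted p = 0.00476) and by -0.33 ± 0.14 in Ppara△Hep, where it did not pass (adjusted p = 0.0852). F12, factor XII, changed by -0.44 ± 0.07 in Ppara△Hep (adjusted p = 3.67e-04) and by -0.19 ± 0.07 in Ppara fl/fl, where it did not pass (adjusted p = 0.0611). Leaving out PHx replicate 3 of Ppara fl/fl brings F12 past the threshold there (-0.28, adjusted p = 0.00164), and leaving out PHx replicate 4 of Ppara fl/fl brings F11 past it in Ppara△Hep (adjusted p = 0.0143). Scaling did the same: F12 in Ppara fl/fl passed under quantile normalization (-0.33, adjusted p = 0.00476) and with array medians subtracted (-0.30, adjusted p = 0.00313). F11 in Ppara△Hep passed under quantile normalization (-0.55, adjusted p = 0.00707), with array medians subtracted (-0.48, adjusted p = 0.0113) and in the fit on 2 groups (adjusted p = 0.0194). The difference between the genotypes for both genes is given with the genotype comparisons.

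The 3 fibrinogen chains did not pass the test in either genotype. They are encoded side by side on chromosome 3 and assemble into the protein that thrombin turns into fibrin. Fga, the alpha chain, read 11.57, 11.37, 11.41 and 11.44 after sham and 11.35, 11.48, 11.39 and 11.38 after PHx in Ppara fl/fl, and 11.37, 11.43, 11.37 and 11.45 after sham and 11.45, 11.45, 11.40 and 11.47 after PHx in Ppara△Hep. Fgb, the beta chain, read 11.71, 11.63, 11.66 and 11.67 after sham and 11.54, 11.66, 11.52 and 11.55 after PHx in Ppara fl/fl, and 11.66, 11.67, 11.58 and 11.61 after sham and 11.59, 11.64, 11.63 and 11.68 after PHx in Ppara△Hep. Fgg, the gamma chain, read 11.77, 11.66, 11.71 and 11.72 after sham and 11.60, 11.68, 11.58 and 11.61 after PHx in Ppara fl/fl, and 11.68, 11.70, 11.65 and 11.69 after sham and 11.66, 11.66, 11.68 and 11.76 after PHx in Ppara△Hep. Sham and PHx arrays overlapped for all 3 chains in both genotypes. The changes in Ppara fl/fl were -0.05 ± 0.05 for Fga, -0.10 ± 0.04 for Fgb and -0.10 ± 0.04 for Fgg (adjusted p = 0.447, 0.0781 and 0.0816). Those in Ppara△Hep were 0.04 ± 0.05, 0.01 ± 0.04 and 0.01 ± 0.04 (adjusted p = 0.605, 0.935 and 0.847) and their 95% intervals reached from -0.06 to 0.14 for Fga, -0.08 to 0.09 for Fgb and -0.07 to 0.10 for Fgg. These signs depend on scaling: with each array's median subtracted, all 3 chains were lower and passed in both genotypes (-0.16, -0.21 and -0.20 in Ppara fl/fl and -0.11, -0.14 and -0.14 in Ppara△Hep for Fga, Fgb and Fgg). Without PHx replicate 2, Fgb also passed in Ppara fl/fl (-0.13, adjusted p = 0.0311). F13b, the carrier subunit of the factor XIII that crosslinks fibrin, behaved otherwise, with 7.80, 8.08, 8.0 and 8.33 after sham and 7.39, 6.86, 7.17 and 7.74 after PHx in Ppara fl/fl, and 8.03, 7.99, 8.0 and 7.93 after sham and 7.43, 7.34, 6.74 and 7.38 after PHx in Ppara△Hep. It changed by -0.76 ± 0.17 and -0.77 ± 0.17 (adjusted p = 0.00432 and 0.00386), and its sham and PHx arrays did not overlap in either genotype.

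The fibrinogen chains have the brightest probe sets of the set, with a mean log2 intensity over 11, close to the 12.11 that was the highest value of the whole table. Among the 46 genes over 11, the median absolute change was 0.15 in Ppara fl/fl and 0.06 in Ppara△Hep, and 37% and 15.2% were lower. Between 9 and 10, where 11 of the 32 genes lie, the median absolute change over 255 genes was 0.21 and 0.19, and 39.2% and 33.7% were lower. Signal so near the top of the range moves with the fibrinogen result, and its part in it was not tested.

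**Figure D2:**
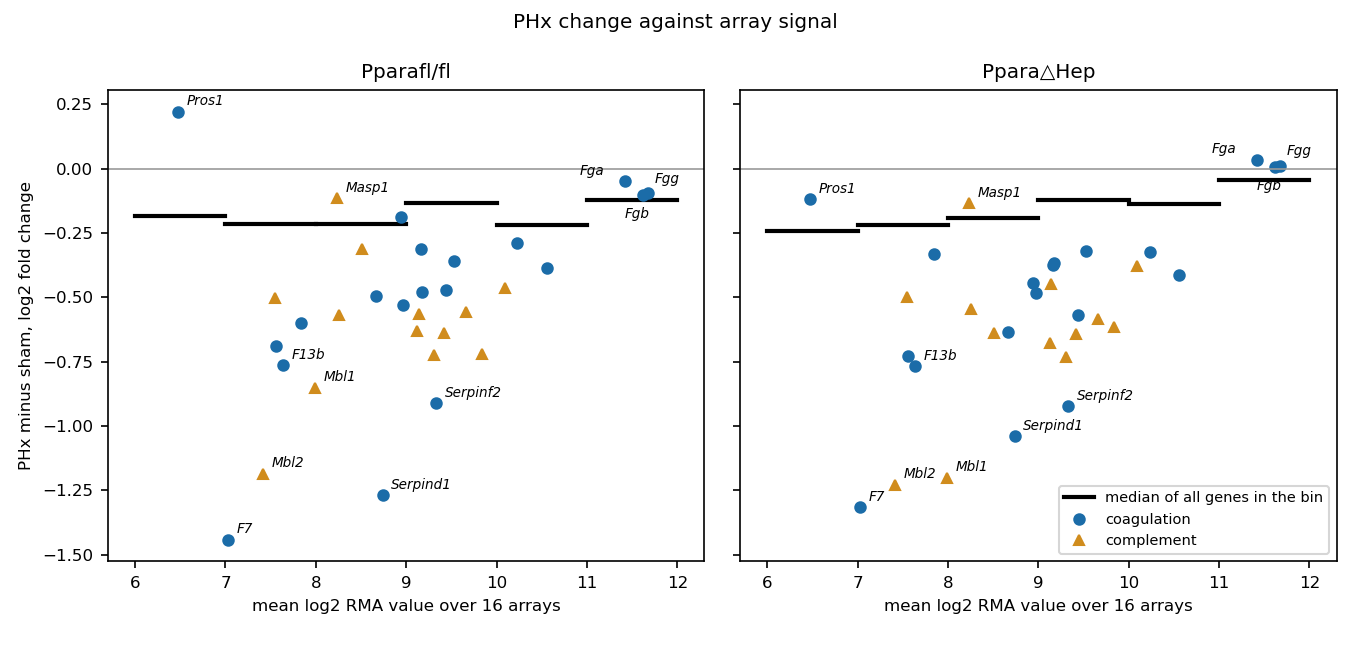
Change from sham to PHx (y axis, log2) against mean log2 intensity over the 16 arrays (x axis) for the coagulation genes and complement genes, 1 panel per genotype, with the median of all genes tested in each range of intensity drawn as a line. Members between 9 and 10 lie well below the line (median -0.57 against -0.13 in Ppara fl/fl), and the fibrinogen chains over 11 lie on or near it.

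The promoters of the fibrinogen chains are set beside those of F7, Serpind1 and Mbl2 because the first 3 genes did not pass and the other 3 fell most in Ppara fl/fl. The 150 bases before the 1 start that the RefSeq promoter table gives for each of these genes are shown for build GRCm38.p6, 5′ to 3′ on the gene's own strand. For F7 and Mbl2 the RefSeq gene record begins upstream of that start, so the stretch lies inside the annotated gene for F7 and overlaps its edge for Mbl2, and other starts were not searched. Capitals mark matches, on either strand, to the HNF1 half-site GTTAAT, bound by a hepatocyte transcription factor, or to the IL-6 response element CTGGGAA known from acute-phase genes.
Fga, chr3:83026003-83026152, plus strand: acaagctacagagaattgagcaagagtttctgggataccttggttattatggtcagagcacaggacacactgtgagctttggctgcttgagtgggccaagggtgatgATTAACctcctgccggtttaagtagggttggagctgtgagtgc
Fgb, chr3:83049864-83050013, minus strand: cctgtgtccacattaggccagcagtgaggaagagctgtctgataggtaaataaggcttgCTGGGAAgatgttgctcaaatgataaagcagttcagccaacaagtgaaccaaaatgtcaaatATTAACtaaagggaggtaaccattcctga
Fgg, chr3:83007574-83007723, plus strand: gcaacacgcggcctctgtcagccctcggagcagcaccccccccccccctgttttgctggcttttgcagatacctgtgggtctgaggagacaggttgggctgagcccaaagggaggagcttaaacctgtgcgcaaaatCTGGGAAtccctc
F7, chr8:13025884-13026033, plus strand: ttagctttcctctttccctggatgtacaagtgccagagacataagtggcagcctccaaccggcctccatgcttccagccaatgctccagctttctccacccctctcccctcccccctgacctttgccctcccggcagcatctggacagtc
Serpind1, chr16:17331221-17331370, plus strand: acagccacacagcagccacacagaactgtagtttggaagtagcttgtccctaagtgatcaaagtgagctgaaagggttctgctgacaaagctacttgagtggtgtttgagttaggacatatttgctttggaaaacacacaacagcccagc
Mbl2, chr19:30232778-30232927, plus strand: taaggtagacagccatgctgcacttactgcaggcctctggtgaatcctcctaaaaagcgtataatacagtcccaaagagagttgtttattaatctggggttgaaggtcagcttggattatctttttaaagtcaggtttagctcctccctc
In these stretches Fga holds 1 HNF1 half-site, Fgg holds 1 IL-6 response element, Fgb holds 1 of each, and F7, Serpind1 and Mbl2 hold neither. Over the full 250 bases, 24 of the 32 measured genes had a promoter to search. For C8g, with 2 promoters listed, only the first was counted. The shares over all are of 32851 promoters from 27025 genes, so a gene with several promoters enters more than 1 time. The IL-6 response element was found in 4 of the 24 (16.7%) and in 9.10% of 32851 promoters, its members being F9, Fgb, Fgg and Masp2. The HNF1 half-site was found in 6 of the 24 (25.0%) and in 6.43% of all, its members being Fga, Fgb, F13b, Hc, C8a and C8b. The C/EBP site TTNNGNAA was found in 10 of the 24 (41.7%) and in 36.8% of all promoters. The PPAR response element, a repeat of AGGTCA spaced by any 1 base, was found in 0 of the 24 and in 0.0335% of all. Only this exact form was searched, and it is so rare that 0 of 24 says nothing about looser PPAR response elements in these genes. No matches of different motifs overlapped in these genes. Genes that fell and genes that did not pass are found on both sides: F9 holds the IL-6 response element and fell in both genotypes, as did F13b, Hc, C8a and C8b, which hold the HNF1 half-site.

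Of 5 inhibitors of coagulation, 4 fell in each genotype. Serpind1 encodes heparin cofactor II, a serpin that inhibits thrombin. It read 9.28, 9.49, 9.27 and 9.41 after sham and 8.05, 7.65, 8.08 and 8.59 after PHx in Ppara fl/fl, and 9.39, 8.97, 9.40 and 9.33 after sham and 8.53, 8.22, 7.6 and 8.57 after PHx in Ppara△Hep. The arrays did not overlap in either genotype, with a change of -1.27 ± 0.20 and -1.04 ± 0.20 (adjusted p = 3.32e-04 and 0.00135), or 41.5% and 48.6% of sham. Serpinc1, antithrombin, changed by -0.53 ± 0.07 and -0.48 ± 0.07 (adjusted p = 4.03e-05 and 9.09e-05). Proc, protein C, which as activated protein C inactivates factors V and VIII, changed by -0.50 ± 0.07 and -0.63 ± 0.07 (adjusted p = 1.89e-04 and 1.57e-05). Serping1, the C1 inhibitor, which restrains both the contact system and complement, changed by -0.29 ± 0.09 and -0.32 ± 0.09 (adjusted p = 0.0219 and 0.0117). Its call in Ppara fl/fl was lost without sham replicate 4 (adjusted p = 0.0563) or PHx replicate 4 (0.0647) and under cyclic loess (-0.24, adjusted p = 0.0688). Pros1, protein S, the cofactor of protein C, was the one inhibitor that did not pass. It read 6.26, 6.56, 6.33 and 6.39 after sham and 6.47, 6.69, 6.58 and 6.69 after PHx in Ppara fl/fl, and 6.70, 6.40, 6.6 and 6.34 after sham and 6.29, 6.21, 6.35 and 6.70 after PHx in Ppara△Hep. The changes were 0.22 ± 0.11 and -0.12 ± 0.11 (adjusted p = 0.125 and 0.429), and under cyclic loess the Ppara fl/fl change of 0.36 passed (adjusted p = 0.0348) and the Ppara△Hep change turned to 0.05. With array medians subtracted the Ppara△Hep change was -0.27 and passed (adjusted p = 0.0440).

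Both measured genes of fibrinolysis fell. Serpinf2 encodes α2-antiplasmin, the main inhibitor of plasmin. It read 9.83, 9.62, 9.73 and 9.86 after sham and 9.05, 8.71, 9.03 and 8.61 after PHx in Ppara fl/fl, and 9.76, 9.73, 9.90 and 9.89 after sham and 9.25, 8.76, 8.76 and 8.83 after PHx in Ppara△Hep. These arrays did not overlap in either genotype, and the change was -0.91 ± 0.12 and -0.92 ± 0.12 (adjusted p = 4.11e-05 and 3.23e-05). Plg, plasminogen, the precursor of plasmin, fell by 0.39 ± 0.07 and 0.41 ± 0.07 (adjusted p = 4.84e-04 and 2.42e-04).

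**Figure D3:**
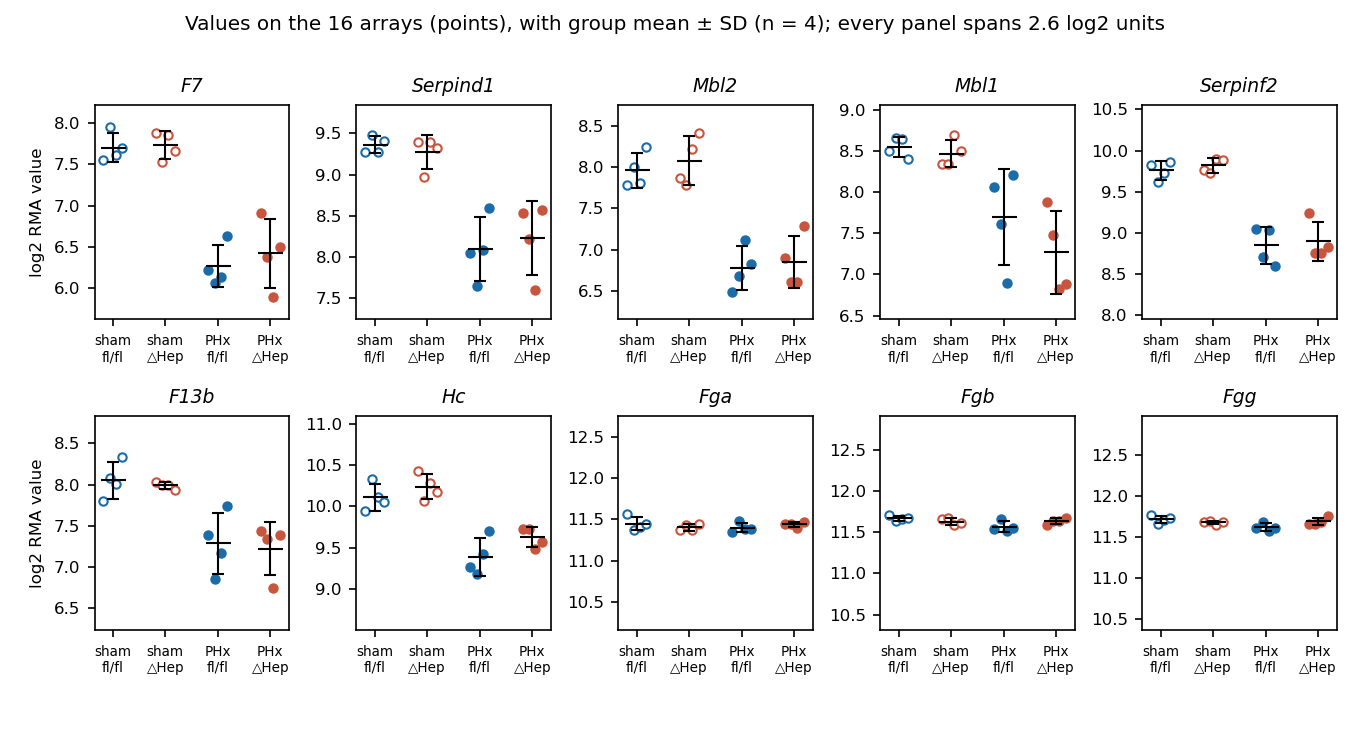
Log2 intensity on each of the 16 arrays (y axis, log2 intensity; x axis, the 4 groups; each point is 1 array, with the group mean ± SD, n = 4) for the 6 genes of largest fall, Hc and the fibrinogen chains. F7, Serpind1, Mbl2 and Serpinf2 drop from sham to PHx in both genotypes, Mbl1 drops with wide scatter after PHx, and the fibrinogen chains stay between 11.35 and 11.77.

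In complement the largest falls were in the lectins that start the lectin pathway. Mbl2 (mannose-binding lectin C) read 7.79, 8.0, 7.81 and 8.24 after sham and 6.49, 6.68, 7.11 and 6.82 after PHx in Ppara fl/fl, and 7.87, 7.79, 8.22 and 8.42 after sham and 6.90, 6.6, 6.61 and 7.28 after PHx in Ppara△Hep. Its arrays did not overlap in either genotype, with a change of -1.19 ± 0.18 and -1.23 ± 0.18 (adjusted p = 1.84e-04 and 1.21e-04), or 44.0% and 42.7% of sham. Mbl1 (mannose-binding lectin A) read 8.50, 8.65, 8.64 and 8.39 after sham and 8.06, 7.62, 6.90 and 8.21 after PHx in Ppara fl/fl, and 8.34, 8.34, 8.68 and 8.50 after sham and 7.87, 7.48, 6.82 and 6.88 after PHx in Ppara△Hep. It had the widest spread of the 32 genes after PHx (SD 0.59 and 0.50, n = 4 each), its arrays did not overlap in either genotype, and the change was -0.85 ± 0.26 and -1.20 ± 0.26 (adjusted p = 0.0196 and 0.00246). Without PHx replicate 3, the lowest of its group, the Ppara fl/fl change was -0.59 and did not pass (adjusted p = 0.0549). Masp1 and Masp2 encode proteases that these lectins carry. Masp1 did not pass in either genotype, at -0.12 ± 0.10 and -0.13 ± 0.10 (adjusted p = 0.397 and 0.325), though quantile normalization brought it past the threshold in both (-0.36 and -0.38) and subtracted array medians did so in Ppara△Hep (-0.28, adjusted p = 0.0230). Masp2, which cuts C4 and C2, fell in Ppara△Hep by 0.64 ± 0.12 (adjusted p = 0.00123) and changed by -0.31 ± 0.12 in Ppara fl/fl (adjusted p = 0.0649). In Ppara fl/fl Masp2 passed without PHx replicate 1 of that genotype (-0.37, adjusted p = 0.0487) and without PHx replicate 1 or 2 of Ppara△Hep (0.00858 and 0.0433), which enter through the shared spread. It also passed there under quantile normalization (-0.51, adjusted p = 0.00605), with array medians subtracted (-0.42, adjusted p = 0.0143) and in the fit on 2 groups (adjusted p = 0.0190).

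The 3 genes of the central and alternative pathways fell in both genotypes. C4b, complement C4, from which the classical and lectin convertase is built, changed by -0.63 ± 0.11 and -0.68 ± 0.11 (adjusted p = 6.73e-04 and 3.40e-04); mice carry a near-identical copy, C4a, that the same probes may read. Cfb, factor B, the protease of the alternative pathway convertase, changed by -0.64 ± 0.09 and -0.64 ± 0.09 (adjusted p = 1.30e-04 and 1.13e-04). Cfi, factor I, which degrades C3b and C4b and so limits complement, fell by 0.46 ± 0.06 and 0.38 ± 0.06 (adjusted p = 3.98e-05 and 2.39e-04).

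All 6 measured genes of the terminal pathway fell in both genotypes, within a narrow range from -0.72 to -0.50 in Ppara fl/fl and from -0.73 to -0.45 in Ppara△Hep. Hc encodes C5, whose cleavage starts the membrane attack complex. It read 9.94, 10.33, 10.11 and 10.06 after sham and 9.27, 9.18, 9.42 and 9.70 after PHx in Ppara fl/fl, and 10.43, 10.07, 10.29 and 10.18 after sham and 9.72, 9.73, 9.48 and 9.57 after PHx in Ppara△Hep. Its arrays did not overlap in either genotype, with a change of -0.72 ± 0.11 and -0.62 ± 0.11 (adjusted p = 2.87e-04 and 8.71e-04). C6, which binds C5b, changed by -0.57 ± 0.14 and -0.54 ± 0.14 (adjusted p = 0.00742 and 0.00916). The 3 subunits of C8 fell together: C8a by 0.56 ± 0.12 and 0.58 ± 0.12, its chromosomal neighbour C8b by 0.72 ± 0.08 and 0.73 ± 0.08, and C8g, encoded elsewhere, by 0.50 ± 0.09 and 0.50 ± 0.09. C8b had the smallest adjusted p of the complement genes in Ppara fl/fl, 1.28e-05, and in Ppara△Hep, 1.01e-05. C9, which forms the pore, changed by -0.57 ± 0.16 and -0.45 ± 0.16 (adjusted p = 0.0154 and 0.0467). The C9 call was lost in Ppara fl/fl without PHx replicate 2 (-0.44, adjusted p = 0.0524). In Ppara△Hep it was lost when any of 10 arrays was left out: sham replicates 1, 3 and 4 and PHx replicates 1, 3 and 4 of that genotype, and sham replicates 3 and 4 and PHx replicates 1 and 3 of Ppara fl/fl (adjusted p = 0.0515 to 0.113). It was also lost there under cyclic loess (-0.38, adjusted p = 0.0998).

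In Ppara fl/fl 14 of 19 coagulation genes and 11 of 13 complement genes fell, and in Ppara△Hep 14 of 19 and 12 of 13. The median change was -0.47 for coagulation and -0.57 for complement in Ppara fl/fl, and -0.41 and -0.62 in Ppara△Hep. By gene, 13 coagulation genes fell in both genotypes, 1 in Ppara fl/fl alone by the threshold (F11), 1 in Ppara△Hep alone (F12) and 4 in neither (Fga, Fgb, Fgg and Pros1). In complement, 11 fell in both, 1 in Ppara△Hep alone (Masp2) and 1 in neither (Masp1). Counting Serping1 with complement left the medians at -0.47 and -0.57 in Ppara fl/fl and -0.43 and -0.60 in Ppara△Hep. The gap between the 2 lists was not tested, and the coagulation list holds the fibrinogen chains at the top of the signal range. When each array's median was subtracted, which lowers the median change of all genes to -0.15 and -0.14, the medians were -0.58 and -0.67 in Ppara fl/fl and -0.56 and -0.77 in Ppara△Hep, and the calls over all genes moved from 3597 higher and 6271 lower to 2286 and 13134 in Ppara fl/fl, and from 4461 and 5273 to 2139 and 13211 in Ppara△Hep.

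No gene of the set passed a comparison of the genotypes. After sham 0 of 32 genes passed the genotype comparison, against 0.0133% of all genes, and 1 had an unadjusted p below 0.05, against 9.26% of all genes (limma). After PHx 0 of 32 passed, against 0.143% of all, and 1 had an unadjusted p below 0.05, against 7.47%. Over both operations together, 8 arrays against 8, 0 passed, against 0.219% of all, and 4 had an unadjusted p below 0.05, against 5.83%. Those 4 were complement genes, 30.8% of 13, against 0% of the 19 coagulation genes and 8.22% of genes with a mean above 4. After sham and after PHx it was 0% of the complement genes and 5.26% of the coagulation genes. The gap between the lists was not tested. The intervals limit what could have been missed. The median half-width of the 95% interval was 0.21 in each of the first 2 comparisons, every interval lay within 1 log2 unit of 0, and 28 of 32 after sham and 26 of 32 after PHx lay within 0.5. The difference was positive, that is higher in Ppara△Hep, in 22 of 32 genes after sham and 23 of 32 after PHx, and in 10 of 13 complement genes after each operation. Over all genes it was positive in 12280 of 30142 after sham and 16955 after PHx, and among those with a mean above 4 in 5227 and 4512 of 9294.

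**Figure D4:**
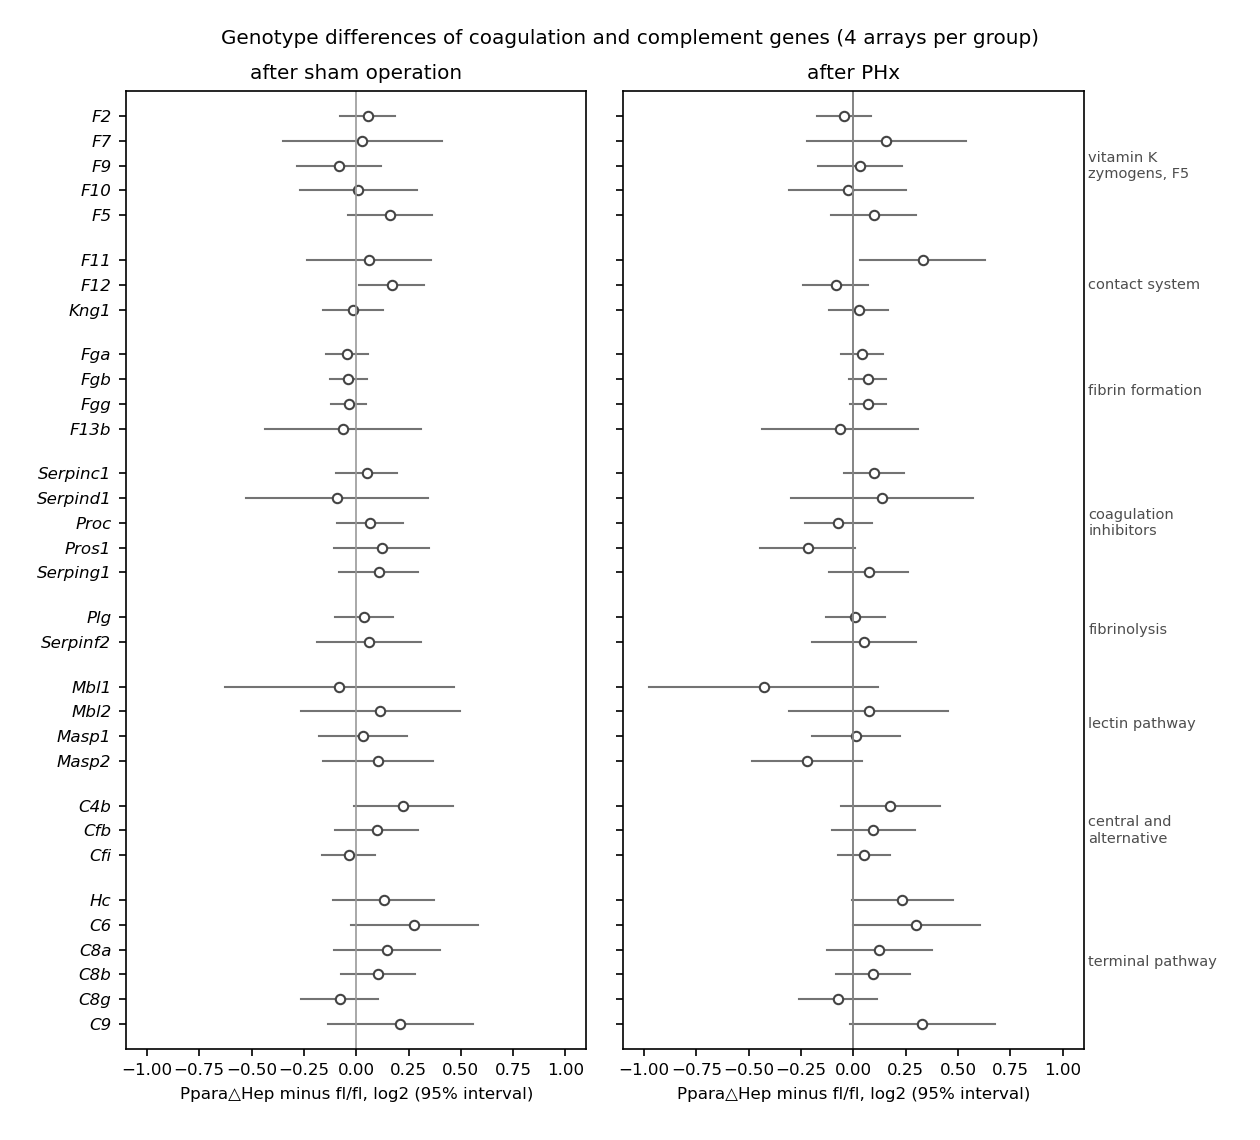
Ppara△Hep minus Ppara fl/fl for each of the 32 genes after sham and after PHx (x axis: log2 difference with its 95% interval; 4 arrays per group). Every interval lies within 1 log2 unit of 0, and all hold 0 except that of F12 after sham and that of F11 after PHx.

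The genes with the smallest p in the genotype comparisons differed by little. F12 read 8.96, 9.05, 9.04 and 9.0 in Ppara fl/fl and 9.18, 9.16, 9.27 and 9.12 in Ppara△Hep after sham, with no overlap. Its difference was 0.17 ± 0.07 (adjusted p = 0.514). C4b also did not overlap after sham, with 9.28, 9.41, 9.35 and 9.32 in Ppara fl/fl and 9.64, 9.44, 9.68 and 9.51 in Ppara△Hep, a difference of 0.22 ± 0.11 (adjusted p = 0.562). These were the only 2 of the 32 whose sham arrays separated by genotype, both higher in Ppara△Hep, against 2.38% of all genes higher and 4.43% lower. After PHx 0 of the 32 separated, against 2.41% of all genes higher and 1.31% lower. C6 read 8.52, 8.51, 8.48 and 8.07 in Ppara fl/fl and 8.62, 8.45, 8.70 and 8.91 in Ppara△Hep after sham. After PHx it read 8.01, 7.76, 7.65 and 7.89 in Ppara fl/fl and 8.4, 8.34, 7.77 and 8.01 in Ppara△Hep, and the genotypes overlapped after both operations. Its difference was 0.28 ± 0.14 after sham, 0.30 ± 0.14 after PHx and 0.29 ± 0.10 over both operations (adjusted p = 0.575, 0.669 and 0.608). Without sham replicate 4 of Ppara fl/fl the sham difference was 0.17. C4b and C9 followed over both operations, at 0.20 ± 0.08 and 0.27 ± 0.11 (adjusted p = 0.728 and 0.783). For C9 the arrays read 9.07, 9.53, 9.41 and 9.17 in Ppara fl/fl and 9.64, 9.15, 9.60 and 9.64 in Ppara△Hep after sham. They read 8.56, 8.35, 8.82 and 9.18 in Ppara fl/fl and 9.09, 9.23, 8.91 and 9.0 in Ppara△Hep after PHx, with overlap after both operations. After PHx the smallest p was that of F11, which read 7.52, 7.74, 7.57 and 6.94 in Ppara fl/fl and 7.88, 7.86, 7.81 and 7.54 in Ppara△Hep, a difference of 0.33 ± 0.14 with a 95% interval from 0.03 to 0.63 (adjusted p = 0.63). Without PHx replicate 4 of Ppara fl/fl the F11 difference was 0.16. C6 and then Hc followed, Hc at 0.23 ± 0.11 (adjusted p = 0.682).

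Whether the change with PHx differed between the genotypes was tested directly. In the test of the difference itself 0 of 32 passed, with 2 at an unadjusted p below 0.05, and 0% of all genes passed, with 11.3% of them at an unadjusted p below 0.05. The smallest p was that of F12, with 8.66, 8.79, 9.09 and 8.76 in Ppara fl/fl and 8.79, 8.66, 8.75 and 8.76 in Ppara△Hep after PHx. Its difference of changes was -0.25 ± 0.10 (adjusted p = 0.39), and -0.17 without PHx replicate 3 of Ppara fl/fl. Pros1 followed with -0.34 ± 0.15 (adjusted p = 0.422) and Fgg with 0.11 ± 0.06 (adjusted p = 0.497). The threshold crossings of F11, F12 and Masp2 in one genotype and not the other are therefore not shown to be differences between the genotypes. The precision was lower here: the median half-width was 0.29, and 31 of 32 intervals lay within 1 log2 unit of 0.

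The further lists are to be read against the share of all genes that fell, 20.8% in Ppara fl/fl and 17.5% in Ppara△Hep, or 36.1% and 39.8% of those with a mean above 4. Of 24 other coagulation and fibrinolysis genes 11 fell in Ppara fl/fl and 11 in Ppara△Hep, and 2 and 3 rose, with a median change of -0.21 and -0.26. The share that fell was 45.8% in either genotype. Serpina10, a serpin that inhibits factor X, and Proz, its cofactor protein Z, changed by -1.14 ± 0.26 and -1.09 ± 0.19 in Ppara fl/fl (adjusted p = 0.00439 and 7.56e-04). In Ppara△Hep the largest falls were in Mcfd2, needed for secretion of factors V and VIII, and Proz, at -1.1 ± 0.26 and -1.03 ± 0.19 (adjusted p = 0.00531 and 0.00104). Thbd, thrombomodulin of endothelial cells, rose by 0.78 ± 0.23 and 1.1 ± 0.23 (adjusted p = 0.0189 and 0.00237). The other genes that rose were F3, tissue factor, in Ppara fl/fl (0.35 ± 0.12, adjusted p = 0.0403), and in Ppara△Hep Serpina5, the protein C inhibitor (0.35 ± 0.08, adjusted p = 0.00372), and F13a1, the catalytic subunit of factor XIII (0.22 ± 0.07, adjusted p = 0.0311). In Ppara fl/fl the Thbd call was lost without sham replicate 2 or PHx replicate 2 or 3 (adjusted p = 0.0590 to 0.0609), and the F3 call without any of sham replicates 1, 3 and 4 or PHx replicates 1, 2 and 4 (0.0566 to 0.120). In Ppara△Hep the F13a1 call was lost without sham replicate 4 or PHx replicate 2, 3 or 4 (0.0522 to 0.0998). Their arrays lay between 2.11 and 2.90 for F3, 1.63 and 2.15 for F13a1 and 1.61 and 2.31 for Serpina5, near the array medians, which ran from 2.02 to 2.08 after sham and from 2.14 to 2.22 after PHx. With array medians subtracted the changes were 0.24 for F3 (adjusted p = 0.119), 0.07 for F13a1 (0.395) and 0.20 for Serpina5 (0.0560), and none passed. F3 and F13a1 did not pass under quantile normalization (0.148 and 0.304) or cyclic loess (0.0547 and 0.168) either, and F3 (0.0568) and Thbd in Ppara fl/fl (0.0525) did not pass in the fit on 2 groups.

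Of 22 other complement genes 10 fell and 0 rose in Ppara fl/fl, and 13 fell and 1 rose in Ppara△Hep, with a median change of -0.27 and -0.44. The share that fell was 45.5% and 59.1%. Cpn2, a subunit of the carboxypeptidase N that inactivates anaphylatoxins, changed by -1.35 ± 0.27 and -1.43 ± 0.27 (adjusted p = 0.00173 and 0.00101). Colec10, a collectin of the lectin pathway, changed by -1.15 ± 0.13 and -1.58 ± 0.13 (adjusted p = 1.13e-05 and 2.69e-07). The gene that rose was C5ar1, the C5a receptor of myeloid cells, by 0.24 ± 0.09 (adjusted p = 0.0475). That call was lost in 12 of the 16 fits that each left out 1 array (adjusted p = 0.0518 to 0.141), those without any of the 8 sham arrays, PHx replicates 1, 3 and 4 of Ppara△Hep or PHx replicate 3 of Ppara fl/fl. C5ar1 lay between 2.41 and 3.00 on the 16 arrays, and its change was 0.09 with array medians subtracted (adjusted p = 0.396), 0.05 under quantile normalization (0.612) and 0.17 under cyclic loess (0.134), and it did not pass in the fit on 2 groups (0.0750).

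Among 15 transcription factors of hepatocytes 4 fell in Ppara fl/fl and 8 in Ppara△Hep, and 0 rose, with a median change of -0.24 and -0.60. The share that fell was 26.7% and 53.3%. Cebpa, which encodes C/EBPα, changed by -1.33 ± 0.24 and -1.53 ± 0.24 (adjusted p = 7.03e-04 and 2.02e-04). Nr0b2 (SHP, a repressor of bile acid synthesis) changed by -2.05 ± 0.73 in Ppara fl/fl (adjusted p = 0.0431), a call lost in 10 of 16 fits that left out 1 array (0.0507 to 0.128), namely without any of the 4 sham arrays or PHx replicate 1, 2 or 4 of its own genotype, or without sham replicate 3 or 4 or PHx replicate 2 of Ppara△Hep. It was also lost under cyclic loess (0.0638) and in the fit on 2 groups (0.0815). Onecut1 (HNF6) changed by -1.68 ± 0.50 in Ppara△Hep (adjusted p = 0.0176), a call lost without sham replicate 1 or PHx replicate 3 (0.0539 and 0.0592). Ppara itself is on this list and changed by -0.32 ± 0.33 and -0.98 ± 0.33 (adjusted p = 0.498 and 0.035), and the call in Ppara△Hep was lost without sham replicate 1, 2 or 3 or PHx replicate 2, 3 or 4 (0.0635 to 0.113) and under cyclic loess (0.0800).

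Of 26 other proteins that the liver secretes 10 fell and 2 rose in Ppara fl/fl, and 8 fell and 2 rose in Ppara△Hep, with a median change of -0.16 and -0.13. The share that fell was 38.5% and 30.8%, near or below that of genes with a mean above 4. Saa4, a serum amyloid A protein carried on lipoproteins, changed by -1.52 ± 0.27 and -1.38 ± 0.27 (adjusted p = 6.32e-04 and 0.00117). Apcs, serum amyloid P, an acute-phase protein of mice, changed by -0.87 ± 0.17 and -1.21 ± 0.17 (adjusted p = 0.00135 and 7.89e-05). Itih2, an inter-alpha-trypsin inhibitor chain, rose by 0.55 ± 0.09 and 0.28 ± 0.09 (adjusted p = 3.94e-04 and 0.0291), and Lcn2, lipocalin 2, by 0.30 ± 0.09 and 0.27 ± 0.09 (adjusted p = 0.0136 and 0.0233). In Ppara△Hep the Itih2 call was lost without sham replicate 2 or 4 or PHx replicate 3 or 4 (0.0575 to 0.0997), and the Lcn2 call without sham replicate 2 or PHx replicate 4 (0.0552 and 0.0738). With array medians subtracted the Ppara△Hep changes were 0.13 for Itih2 (adjusted p = 0.227) and 0.12 for Lcn2 (0.197), and under quantile normalization 0.18 (0.141) and 0.17 (0.193). In Ppara fl/fl the Lcn2 call was lost under quantile normalization (0.19, adjusted p = 0.121) and in the fit on 2 groups (0.0503), and the Itih2 call in Ppara△Hep in the fit on 2 groups (0.0798).

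Markers of the liver's cell types were counted in the same way. Over all genes 20.8% fell in Ppara fl/fl and 17.5% in Ppara△Hep, and 11.9% and 14.8% rose. Of those with a mean above 4, 36.1% and 39.8% fell. Of 10 measured hepatocyte markers 2 fell in Ppara fl/fl and 1 in Ppara△Hep. All 10 read at least 6.67, the lowest value of Gys2, so genes with a mean above 4 are the closer comparison. The shares of 20% and 10% were below those of 36.1% and 39.8% in both genotypes. Against all genes they were near in Ppara fl/fl and below in Ppara△Hep. The log2 of their summed intensity ran from 13.996 to 14.23 and 14.02 to 14.11 after sham. After PHx it ran from 14.03 to 14.20 and 13.99 to 14.20. Bright probe sets such as Alb, at 11.67 to 11.91 near the top of the signal range, weigh heavily in this sum. Of 9 Kupffer cell markers 4 and 7 fell (44.4% and 77.8%), in Ppara fl/fl and Ppara△Hep in that order. Their summed level ran from 8.54 to 9.21 and 8.75 to 9.33 after sham. After PHx it ran from 8.15 to 8.59 and 8.04 to 8.71. Of 9 sinusoidal endothelial markers 5 fell and 1 rose in each genotype (55.6% and 11.1%). Their summed level was 8.78 to 8.87 and 8.71 to 8.82 after sham and 8.41 to 8.93 and 8.35 to 8.94 after PHx. Of 8 stellate cell markers 3 fell in each (37.5%). Their summed level was 8.31 to 8.50 and 8.23 to 8.62 after sham and 7.86 to 8.32 and 7.65 to 8.19 after PHx. Platelet markers, of which 6 were measured, fell in 0 and rose in 0 and 3 (0% and 50%). Their summed level was 5.80 to 5.92 and 5.61 to 5.79 after sham and 5.80 to 6.00 and 5.86 to 6.14 after PHx. Their probe sets read low, from 1.53 for Gp6 to 4.29 for Gp9 on the 16 arrays. Array medians also rose, from 2.02 to 2.08 after sham to 2.14 to 2.22 after PHx. The part of low signal and of this shift in the platelet rises was not tested. Of the measured cholangiocyte, neutrophil, lymphocyte and erythroid markers (5, 6, 5 and 1), 1, 1, 3 and 1 fell in Ppara fl/fl (20%, 16.7%, 60% and 100%). In Ppara△Hep 0, 0, 0 and 1 fell, and 0 rose in either genotype. The 5 lymphocyte probe sets also read low, from 1.34 for Ms4a1 to 3.03 for Nkg7 on the 16 arrays. The part of low signal in their falls was not tested. The hepatocyte markers' summed level overlapped between sham and PHx in both genotypes. The part of the other cell types in the changes was not tested.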

How the data were processed

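Log2 expression values of 72688 probe sets on 16 arrays were used as deposited by the authors, who made them with RMA per the submitters' processing notes; for software, version and build: not given in the sources used here. Probe sets were named from the platform annotation, with symbols updated through Entrez IDs. Of them 30604 had 1 symbol, 2146 several and 39938 were unlisted, and only those with 1 symbol were used. A gene with several probe sets took the one of highest mean, which left 30142 genes. All 16 arrays were fitted together in limma 3.58.1 (R 4.3.3), with 1 mean per group and 12 residual degrees of freedom, eBayes and Benjamini-Hochberg adjustment over all genes. A call is an adjusted p below 0.05. No filter on low values was applied. Precision is limited by 4 arrays per group.

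The 6 contrasts were PHx against sham in each genotype, the genotypes after each operation and over both, and the difference of the PHx changes. The members and all gene and marker lists were chosen with earlier results of these data known. Genes given array by array are the 6 largest called changes with PHx, the fibrinogen chains, Hc and the 3 of smallest p in each genotype contrast. From each further list, up to 3 of the called genes with the largest changes were named per direction. The summed marker level is the log2 of the sum of unlogged values. Promoters came from RefSeq (GRCm38.p6), and motifs were searched on both strands in the 250 bases before the start. The fit was tested on simulated data. Alternatives were 3 other normalizations, a filter at a mean of 4, the mean of a gene's probe sets, protein-coding genes alone, trended robust eBayes, fits on 2 groups and leaving out each array. Replicate numbers follow accession order and are only names.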

Additional observations from a re-analysis of the deposited data

Results flagged for a closer look

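In each of the 128 sets of 4 arrays (32 genes in 4 groups), the highest or lowest array was compared with the others by Dixon's ratio. Its 95% critical value was exceeded in 5 sets, where chance alone gives about 1 in 20, or 6.4 of 128. F13b was low on PHx Ppara△Hep replicate 3, at 6.74 against 7.34 to 7.43 on the other arrays of its group. Proc, protein C, was high on sham Ppara△Hep replicate 3, at 9.11 against 8.93 to 8.95. Serpinf2, α2-antiplasmin, was high on PHx Ppara△Hep replicate 1, at 9.25 against 8.76 to 8.83. C6 was low on sham Ppara fl/fl replicate 4, at 8.07 against 8.48 to 8.52, and this array enters its genotype difference after sham. C9 was low on sham Ppara△Hep replicate 2, at 9.15 against 9.60 to 9.64, and this array enters its change with PHx in that genotype.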

How the results depend on the processing

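Of the genes called after PHx, 21 of 25 in Ppara fl/fl and 25 of 26 in Ppara△Hep were called under all 24 alternatives, and the others are named with their values in the report. Leaving out 1 array gave 23 to 26 called genes in Ppara fl/fl and 25 to 27 in Ppara△Hep, and 0 in every genotype contrast under every alternative. The complement median in Ppara fl/fl was -0.76 under quantile normalization, and the coagulation median in Ppara△Hep was -0.55 under quantile normalization and -0.56 with array medians subtracted. In Ppara△Hep the signs of the genes near 0 turned: with array medians subtracted, Fga was -0.114, Fgb -0.144 and Fgg -0.137, and under cyclic loess Fgb was -0.0374, Fgg -0.0332 and Pros1 0.0450. Leaving out 1 array gave -0.0105 to 0.0200 for Fgb and -0.0100 to 0.0217 for Fgg. The cause was not tested. Over all genes, quantile normalization gave 2436 higher and 12964 lower in Ppara fl/fl and 2587 and 10514 in Ppara△Hep. No paired analysis was possible because the labels give no replicate numbers shared between the groups.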
